A study of Drosophila melanogaster with 1908 samples.

Results

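The genes htl, stumps, pyr and ths form the Heartless fibroblast growth factor (FGF) pathway of Drosophila, and they are 4 of the 23932 genes in the deposited count matrix. They were taken by name as the receptor, the adaptor and the ligands of this pathway. The rule uses no measured value, but the genes were picked with earlier results of these data known. Nuclei came from whole wild-type Canton S embryos of Drosophila melanogaster kept at 25°C, with no treatment and no mutant. Collection windows, 11 in all and partly overlapping, covered development from egg laying to 20 hours. Their RNA was profiled by sci-RNA-seq3, a combinatorial indexing method that counts unique molecular identifiers (UMIs) per gene and nucleus, in 7 experiments (numbered 1, 2, 3, 4, 10, 11 and 12) that each held nuclei of 4 to 10 windows. The matrix held 547805 nuclei, and UMIs were summed over the nuclei of each experiment and window, which gave 38 sums of 462334 to 36032867 UMIs. Each window was represented by 2 to 6 experiments, and these served as replicates. Nothing in the sources used here says that experiments were separate collections of embryos, so p-values measure only the spread between these samples, which may be technical. Levels are given as UMIs of the gene scaled to a total of 1000000 UMIs for each sum (CPM). In sums over whole embryos, fewer cells of a type and less RNA per cell cannot be told apart.

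Heartless is a receptor tyrosine kinase of the FGF receptor family, known for its part in the spreading of the mesoderm after gastrulation and later in the heart, the visceral muscle and glia. Stumps, also called Dof, is a cytoplasmic adaptor that links FGF receptors to the Ras and MAP kinase cascade, and it serves Heartless in the mesoderm and Breathless (btl), the other FGF receptor of the fly, in the trachea. Pyramus (pyr) and Thisbe (ths) are secreted ligands of Heartless that are related to vertebrate FGF8 and are known to be made in the ectoderm beside the mesoderm. The receptor side and the ligand side of the pathway are therefore known from different cells, and the values below were arranged by these roles.

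In the Ensembl BDGP6.54 annotation, whose assembly corresponds to dm6, htl (FBgn0010389) lies on the minus strand of chromosome 3R from 18045216 to 18052984, and stumps (FBgn0020299) lies on the plus strand of 3R from 14577217 to 14608079. The ligand genes are neighbours on the plus strand of chromosome 2R, with pyr (FBgn0033649) from 11712263 to 11726345 and ths (FBgn0033652) from 11756817 to 11814424. The gap between them is 30471 bases and holds no other annotated gene. Over the 38 sums, htl had 16107 UMIs, stumps 49204, pyr 26864 and ths 37743. Of the annotated genes that overlap them, lncRNA:CR46153 had 0.215% as many UMIs as stumps, and 3 genes within ths had 4 to 7 UMIs each.

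The receptor gene htl was nearly undetected in the first window, was present from the 2- to 4-hour window on and kept a similar level up to the last window. At 0 to 2 hours its levels were 0.614, 2.32, 0.923 and 0.610 CPM in experiments 2, 10, 11 and 12. At 1 to 3 hours they were 19.5, 4.97, 4.80 and 2.76 CPM in the same experiments, and the 19.5 CPM of experiment 2 rested on 9 UMIs in the smallest of the sums. At 2 to 4 hours htl reached 54.3 CPM in experiment 11 and 37.5 CPM in experiment 12. The ranges of these first windows did not overlap. The 6 experiments of the 3- to 7-hour window had a lowest, median and highest value of 47.6, 69.7 and 86.4 CPM, and the 3 experiments of the last window, 16 to 20 hours, had 64.5, 53.997 and 54.9 CPM. Within this span every window overlapped its neighbour in the order of mean levels. The highest mean was 76.3 ± 5.63 CPM (SD, n = 4) at 4 to 8 hours and the lowest of these later windows was 54.6 ± 13.2 CPM (SD, n = 3) at 6 to 10 hours. In the 6 windows from 6 to 10 hours on, experiment 1 held the highest htl value in 6 of 6.

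The adaptor gene stumps was also nearly undetected in the first window and present from the 2- to 4-hour window on. Its levels at 0 to 2 hours were 1.23, 5.84, 2.27 and 0.949 CPM in experiments 2, 10, 11 and 12, and at 1 to 3 hours 28.1, 12.96, 12.7 and 7.94 CPM. At 2 to 4 hours it had 139.3 CPM in experiment 11 and 162.5 CPM in experiment 12, above every value of the earlier windows. The 6 experiments of the 3- to 7-hour window spanned 178.2 to 330.9 CPM with a median of 199.5 CPM, and the 330.9 CPM of experiment 1 stood apart from the next value of 224.3 CPM. The highest mean, 267.4 ± 31.7 CPM (SD, n = 3), fell in the 8- to 12-hour window, whose values were 291.7, 278.8 and 231.5 CPM in experiments 1, 3 and 10. In the last window, 16 to 20 hours, the same experiments had 173.4, 145.5 and 164.6 CPM, which was below all 3 values of the 8- to 12-hour window and below all 3 of the 14- to 18-hour window.

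The ligand gene pyr was likewise nearly undetected at first and present from 2 to 4 hours on. At 0 to 2 hours the sum of experiment 2 held no pyr UMI, which allows a level of up to 1.84 CPM (3 counts), and the other values were 2.54, 0.923 and 0.271 CPM in experiments 10, 11 and 12. At 1 to 3 hours pyr had 8.65, 8.89, 9.61 and 5.02 CPM, and at 2 to 4 hours 62.5 and 71.9 CPM. The window of 3 to 7 hours had a lowest, median and highest value of 79.7, 89.8 and 194.8 CPM. In that window experiment 1, at 194.8 CPM, lay far above the next value of 103.6 CPM, and in the 4- to 8-hour window it was again highest at 223.5 CPM against 102.6, 125.1 and 92.1 CPM in experiments 2, 4 and 10. The highest mean of pyr came late, at 12 to 16 hours, with 163.5, 132.3 and 161.7 CPM in experiments 1, 3 and 10, but all windows from 3 to 7 hours on overlapped their neighbours in the order of means.

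The ligand gene ths differed in the window of its highest mean, which rested on few experiments. At 0 to 2 hours its levels were 0.614, 2.84, 3.498 and 0.915 CPM in experiments 2, 10, 11 and 12, and at 1 to 3 hours 19.5, 8.29, 21.96 and 13.2 CPM. At 2 to 4 hours it had 282.8 and 246.6 CPM in experiments 11 and 12, its highest mean of all windows at 264.7 ± 25.6 CPM (SD, n = 2). Its values at 3 to 7 hours ran from 111.9 to 310 CPM with a median of 191.4 CPM. The lowest mean after 3 hours was 91.6 ± 28.3 CPM (SD, n = 3) at 6 to 10 hours, where experiments 1, 3 and 10 had 89.7, 120.9 and 64.4 CPM. From 8 to 12 hours on, the values lay between 94.3 and 238.4 CPM, and experiment 3 held the highest in each of the 6 windows from 6 to 10 hours on.

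**Figure D1:**
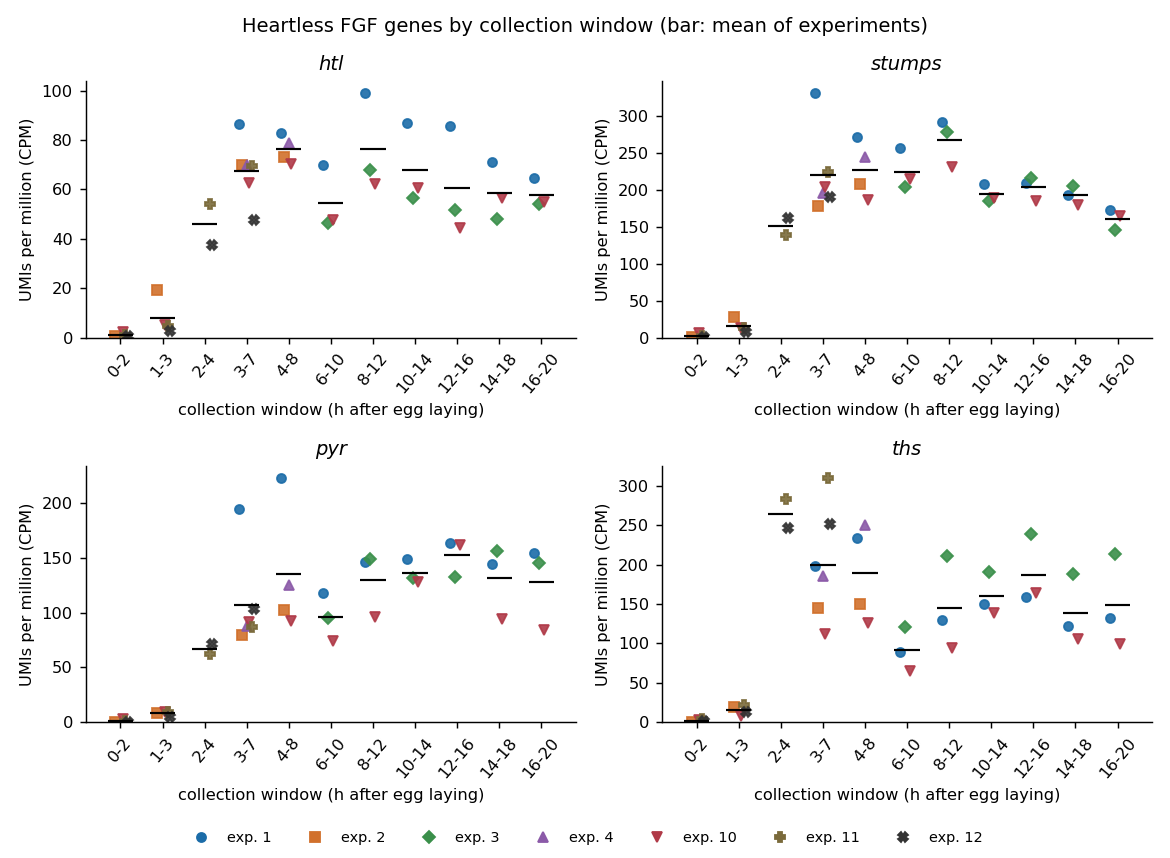
Level of each pathway gene (CPM, linear axis from 0) in every experiment and collection window, with windows in order of time on the x axis, 1 point for each sum over nuclei of an experiment and window, and a bar at the mean of the window. All 4 genes sit at or below 5.84 CPM at 0 to 2 hours and at or above 37.5 CPM from 2 to 4 hours on, and ths alone has its highest mean at 2 to 4 hours, with values of 282.8 and 246.6 CPM.

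The difference among the 11 windows was tested for every gene with edgeR's quasi-likelihood F test and Benjamini-Hochberg adjustment, with an adjusted p (FDR) of 0.05 as threshold. All 4 genes passed, with adjusted p of 5.9e-13 for htl, 1.2e-14 for stumps, 4.6e-13 for pyr and 2.0e-11 for ths, but 10571 of the 12116 genes tested also passed, or 87.2%. Between 0 to 2 and 3 to 7 hours, the windows that span the onset of zygotic transcription and gastrulation, all 4 genes rose. The log2 fold change was 5.52 ± 0.41 (SE) for htl, 6.05 ± 0.39 for stumps, 6.29 ± 0.48 for pyr and 6.15 ± 0.53 for ths, with adjusted p (edgeR) between 8.9e-15 and 3.5e-12. Of all genes 70.4% were called in this comparison, 43.4% as higher, and each of the 4 genes was higher in every sum of the later window than in any of the earlier. The median log2 fold change over all genes was 0.54, and it moved to 1.398 with DESeq2 size factors and 0.80 without TMM factors, so these rises were far above the shift that scaling produced. Under 13 alternatives the values ran from 5.43 to 6.44 for htl, 5.93 to 7.08 for stumps, 6.05 to 7.28 for pyr and 5.95 to 7.10 for ths.

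In the later comparisons that were run, 8 to 12 against 3 to 7 hours and 16 to 20 against 8 to 12 hours, none of the 4 genes passed. Other pairs of later windows were not tested, such as those with the 6- to 10-hour window, where the ths mean was low. Between 3 to 7 and 8 to 12 hours the log2 fold changes were 0.24 ± 0.33 (SE) for htl, 0.35 ± 0.31 for stumps, 0.37 ± 0.37 for pyr and -0.43 ± 0.43 for ths, and none was called while 17.6% of the genes tested were, 11.1% as higher and 6.5% as lower. Between 8 to 12 and 16 to 20 hours they were -0.40 ± 0.39 for htl, -0.06 ± 0.43 for pyr and -0.01 ± 0.49 for ths, again without a call, while 22.4% of genes were called, 15.6% as higher and 6.78% as lower. In this last comparison stumps had a log2 fold change of -0.73 ± 0.37 (SE) with an adjusted p (edgeR) of 0.156. The experiments are shared batches, and with experiment as a block stumps fell by 0.72 ± 0.27 with an adjusted p (edgeR) of 0.0296. That fit called 49.1% of all genes, and 26.1% as lower, so a fall was common in it. The comparisons share the 3- to 7-hour and the 8- to 12-hour sums with each other. The counts of calls rested partly on experiments 1 and 10: without experiment 1, 1178 genes were called between 3 to 7 and 8 to 12 hours and 1172 between 8 to 12 and 16 to 20 hours, in place of 2138 and 2718, and without experiment 10, 1378 and 1473.

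The few UMIs of the first window were partly in nuclei that did not look young. The authors' neural network gave each nucleus an inferred age from its expression, and 2190 of the 78890 nuclei of the 0- to 2-hour window had an inferred age of 4 hours or more. In experiment 10 these nuclei held 14 of the 31 htl UMIs, 57 of the 78 stumps UMIs, 23 of the 34 pyr UMIs and 29 of the 38 ths UMIs of that window. In experiments 11 and 12 they held none of the htl, stumps and ths UMIs. With only nuclei whose inferred age lay within their window, the log2 fold change from 0 to 2 to 3 to 7 hours was larger for each gene, 6.19 for htl, 7.08 for stumps, 7.28 for pyr and 6.76 for ths. As the age came from the same counts, this choice of nuclei was not independent of the levels compared.

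Bins of 1 hour of inferred age resolved the course of the 4 genes more finely than the windows. The age was inferred by the authors from the same counts, so these values are a description without a test. In experiment 1, ths had 458.96 CPM at 3 to 4 hours and 504.04 CPM at 4 to 5 hours, went down to 83.7 CPM at 7 to 8 hours and stood at 163.4 CPM at 13 to 14 hours. Experiment 10 showed the dip at a smaller size, with 127.7 CPM at 4 to 5 hours, 64.2 CPM at 8 to 9 hours and 180.9 CPM at 13 to 14 hours. In experiments 2, 4, 11 and 12 the highest bin of ths also lay at an inferred age of 3 to 5 hours, with 214.6, 238.2, 412.4 and 251.2 CPM. These experiments held no window after 4 to 8 hours, so a later peak could not be seen in them. Experiment 3, which held no window before 6 hours, had its highest bin at 12 to 13 hours with 227.9 CPM. Of the experiments with early and late windows, experiment 1 had its highest ths bin at 4 to 5 hours and experiment 10 at 13 to 14 hours. In experiment 1 pyr also had its highest bin at 4 to 5 hours, with 332.1 CPM, and a low of 110 CPM at 7 to 8 hours. For stumps the same experiment showed 398.5 CPM at 4 to 5 hours, 225.3 CPM at 7 to 8 hours and a second high of 310 CPM at 9 to 10 hours, and experiment 10 had its highest bin, 250 CPM, at 10 to 11 hours. The receptor htl lay between 59.6 and 96.8 CPM in all bins of experiment 1 from 3 to 4 hours on. The bin of 4 to 5 hours of experiment 1 held 864 nuclei, and its values are correspondingly less certain than those of later bins.

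The balance between the ligands was followed over time, as a description without a test. The log2 ratio of ths to pyr UMIs, in which depth cancels, was 2.18 in experiment 11 and 1.78 in experiment 12 at 2 to 4 hours. At 3 to 7 hours it ran from 0.02 in experiment 1 to 1.84 in experiment 11 with a mean of 0.89 ± 0.66 (SD, n = 6), and at 6 to 10 hours its mean was -0.09 ± 0.39 (SD, n = 3). The experiments that supplied the early windows differed from those that supplied the late windows, so the change was also read within experiments. In experiment 11 the ratio was 2.18 at 2 to 4 and 1.84 at 3 to 7 hours, and in experiment 12 it was 1.78 and 1.28. Between the windows of 3 to 7 and 6 to 10 hours it went from 0.02 to -0.40 in experiment 1, and from 0.28 to -0.21 in experiment 10. Between 3 to 7 and 4 to 8 hours the direction differed: the ratio was higher in experiments 1 (0.06) and 10 (0.45) and lower in experiments 2 and 4. By 16 to 20 hours it stood at -0.22, 0.55 and 0.24 in experiments 1, 3 and 10, each above its value at 6 to 10 hours, and in experiment 10 close to its 0.28 at 3 to 7 hours. Experiment 3, which held windows from 6 to 10 hours on, had ratios from 0.27 to 0.85, above those of experiments 1 and 10 in each window. On the receptor side the mean log2 ratio of stumps to htl UMIs stayed between 1.48 and 2.06 from 2 to 4 hours on.

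**Figure D2:**
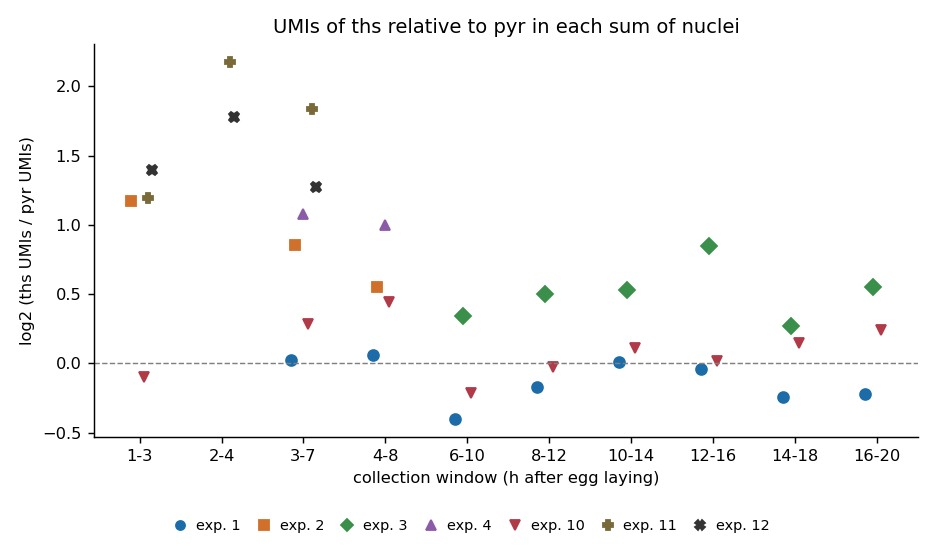
Log2 ratio of ths to pyr UMIs in each experiment and collection window, with windows in order of time on the x axis, 1 symbol for each experiment and a dashed line at equal counts. The ratio is highest at 2 to 4 hours, at 2.18 and 1.78, and lies between -0.40 and 0.85 from 6 to 10 hours on.

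Within nuclei, the receptor and its adaptor were detected together more often than independent detection gives, and so were the ligands, while no pair of a ligand with a receptor-side gene passed the test. To remove the effect of depth, each nucleus was thinned to 250 UMIs, and co-detection was measured as a Mantel-Haenszel odds ratio over windows within each experiment. At this depth htl and stumps were found together in 2.001 times as many nuclei as independent detection within each experiment and window gave. The log2 odds ratios of the 7 experiments were 1.13, 1.52, 1.61, 0.46, 0.74, 1.21 and 0.99 in experiments 1, 2, 3, 4, 10, 11 and 12. The mean was 1.09 ± 0.41 (SD, n = 7), positive in 7 of 7 experiments, with an exact two-sided sign-flip permutation p of 0.0156, the smallest that 7 experiments allow, and 0.0469 after Benjamini-Hochberg adjustment over the 6 pairs. The ligands pyr and ths were found together in 1145 nuclei against 439.3 expected. Their log2 odds ratios were 1.64, 1.90, 1.56, 0.86, 1.37, 1.45 and 1.54 in the same order, with a mean of 1.47 ± 0.32 (SD, n = 7) and the same exact permutation p of 0.0156, adjusted 0.0469.

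With counts summed over experiments, both pairs were found in excess in every window from 2 to 4 hours on. Single experiments did not all show it. At 6 to 10 hours experiment 1 held 43 of the 50 nuclei with htl and stumps, and experiment 10 held none where 2.03 were expected. For pyr and ths, experiment 12 had 1 nucleus at 2 to 4 hours, where 1.31 were expected. In these windows htl and stumps were found together 1.47 to 2.78 times as often as independent detection gives in each window, with 22 nuclei against 8.02 at 2 to 4 hours. For pyr and ths this factor was 2.36 to 3.26, with 81 nuclei against 24.9 at 6 to 10 hours. At 1 to 3 hours 13 nuclei held both ligands, where 0.287 were expected, and 5 held htl and stumps, where 0.151 were expected. An excess there was not particular to these pairs. Pyr was found with htl in 1 nucleus against 0.0984, and with stumps in 1 against 0.245. No nucleus held ths with htl or stumps, where 0.173 and 0.422 were expected.

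The 4 pairs of a ligand with a receptor-side gene stood at or below independent detection. For htl and pyr the mean log2 odds ratio was -0.54 ± 0.85 (SD, n = 6), and experiment 12, with none found and 1.59 expected, gave no value. It was -0.06 ± 0.39 for htl and ths, -0.25 ± 0.48 for stumps and pyr, and -0.09 ± 0.20 for stumps and ths (SD, n = 7 each). The exact sign-flip permutation p of these 4 pairs were between 0.188 and 0.734, and adjusted between 0.281 and 0.734, so none was called. The difference between the htl and stumps pair and the mean of these 4 pairs was tested itself, and it was 1.38 ± 0.78 (SD, n = 6), positive in 6 of 6 experiments, with an exact permutation p of 0.0312, the smallest that 6 experiments allow. With 1-hour bins of inferred age as strata it was positive in 5 of 6 experiments, and the call was lost with an exact permutation p of 0.0625. In the main strata it ran from 0.09 in experiment 4, where all pairs were positive, to 2.16. Without thinning, all 6 pairs were positive in 7 of 7 experiments, the cross pairs at 0.67 to 0.86, and the difference was then 0.66.

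**Figure D3:**
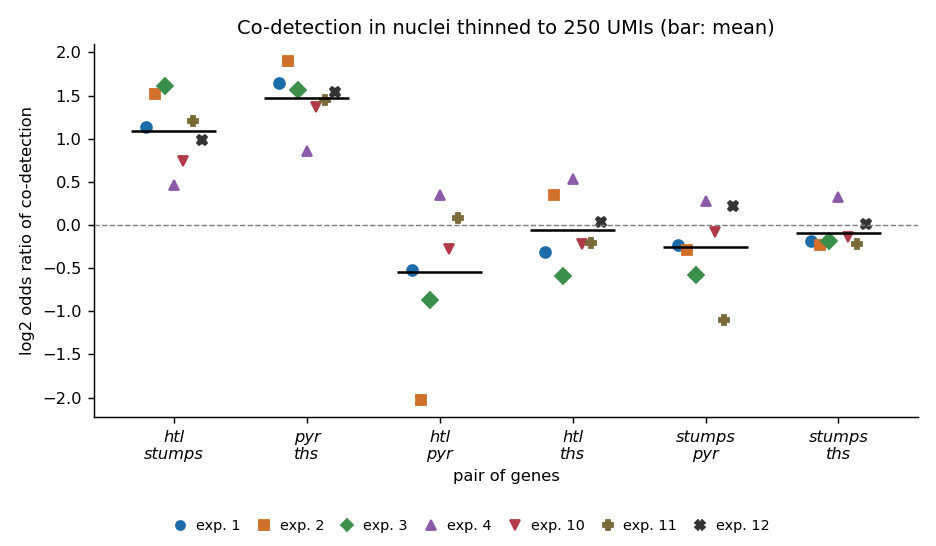
Co-detection of each of the 6 gene pairs at 250 UMIs per nucleus, as the log2 odds ratio of each experiment (points) and its mean over experiments (bar), with a line at 0 for independent detection. The points of htl with stumps lie between 0.46 and 1.61 and those of pyr with ths between 0.86 and 1.90, while the cross pairs scatter around or below 0.

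To see which other genes share nuclei with each pathway gene, the nuclei of an experiment and window with a UMI of the gene were summed and set beside all its other nuclei, each nucleus thinned to 250 UMIs, and the pairs of sums were compared with edgeR. There were 22 such pairs for htl with 5908 detected nuclei, 32 for stumps with 19977, 29 for pyr with 12111 and 31 for ths with 14970. Pairs of the same experiment share a batch, and the test treats them as independent. It called 7.13% of 5934 genes tested with htl (3.62% higher and 3.51% lower), 20.8% of 5366 with stumps (15.1% and 5.7%), 24.6% of 4682 with pyr (16.9% and 7.71%), and 28.4% of 4584 with ths (19.7% and 8.68%). The split of the calls depended on the scaling: the higher share of the calls was 50.8, 72.6, 68.7 and 69.5% for htl, stumps, pyr and ths, but 42.9, 33.7, 37.8 and 35.8% without TMM factors and 47.4, 31.6, 24.3 and 28.3% with DESeq2. Without experiment 1 the fit called 1.57, 11.5, 16.6 and 18.3% of the genes tested. Without the pair block, so that variation between windows and experiments entered the error, it called 0.118, 1.02, 1.56 and 1.29%.

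Among the pathway genes themselves, each was higher in nuclei with the other gene of its own side. In nuclei with htl, stumps stood at 515.1 CPM against 224.5 CPM in the other nuclei, with a log2 fold change of 1.22 ± 0.10 (SE), higher in 20 of 22 pairs. In nuclei with stumps, htl stood at 157.1 CPM against 63.8 CPM, with 1.29 ± 0.12, higher in 28 of 32 pairs. In nuclei with pyr, ths stood at 464.8 CPM against 153.1 CPM, with 1.69 ± 0.07, higher in 29 of 29 pairs, and in nuclei with ths, pyr stood at 363.97 CPM against 114.5 CPM, with 1.70 ± 0.08, higher in 30 of 31 pairs. These 4 calls held under all alternatives. Across the sides, pyr was lower in nuclei with htl, at 98.7 against 132.3 CPM, with -0.47 ± 0.15 and an adjusted p (edgeR) of 0.0382, lower in 18 of 22 pairs. That call was lost with DESeq2, without the filter on low counts, without the block, and without experiment 1 or 2. The other 7 values across the sides lay between -0.38 and -0.07 and were not called, the nearest being htl in nuclei with pyr at -0.38 ± 0.15 with an adjusted p (edgeR) of 0.0576.

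Genes were ranked by log2 fold change among those called, higher in at least 80% of pairs and with at least 50 UMIs in detected nuclei. By this rule the 10 genes most enriched in nuclei with htl were Sobp, lncRNA:CR45361, kon, stumps, kirre, if, Him, wgn, beat-IIb and jeb. Several of them are known from muscle: kirre encodes a receptor for myoblast fusion, kon a transmembrane protein of muscle attachment, if an integrin alpha subunit, Him a regulator that holds muscle progenitors undifferentiated, and lncRNA:CR45361 is listed in RefSeq under the synonym pri-mir-1, the primary transcript of the muscle miRNA mir-1. Kirre stood at 1403 CPM in nuclei with htl against 532.96 CPM, with a log2 fold change of 1.19 ± 0.08 (SE). Jeb, the ligand of the receptor Alk in the visceral mesoderm, had 0.96 ± 0.14, and lncRNA:CR45361 1.29 ± 0.17. Of the 10 genes, stumps, if and wgn passed under all 12 alternatives. The other 7 lost the call without the pair block, where 7 genes in all were called, Him and jeb lost it also without experiment 1, and beat-IIb also with all UMIs of each nucleus.

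Markers of muscle and mesoderm were higher in nuclei with htl, where 3.62% of all genes rose and 3.51% fell. Of the somatic muscle list 8 of the 10 genes tested rose and none fell, with a median log2 fold change of 0.70 beside -0.01 over all genes. They include nau, the fly MyoD (1.68 ± 0.24, SE), and the troponin gene wupA (1.203 ± 0.13). Of the early mesoderm list 5 of 6 rose, among them the transcription factor genes tin (1.09 ± 0.28) and Mef2 (0.93 ± 0.08). Of the visceral mesoderm list 3 of 6 rose, with org-1, a T-box factor, at 1.38 ± 0.19, and of the cardiac list 4 of 8 rose, with Sur, a subunit of a potassium channel, at 2.28 ± 0.26, though it was higher in only 10 of 22 pairs. Of the glia list repo, the glial determinant, rose by 0.92 ± 0.28, a call that was lost under 5 of the 10 alternatives it could be fitted in, and none of the trachea, neuron, midline, hemocyte and neural progenitor lists rose. In the other direction 3 of 4 fat body genes fell, with the lipoprotein gene apolpp at -1.43 ± 0.12, and so did 3 of 7 epidermis genes, 3 of 6 amnioserosa genes and 2 of 5 endoderm and midgut genes.

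The same thinned nuclei and lists were then read the other way, as the share with a pathway gene among nuclei with list genes. These shares, here and below, are therefore no separate support. The share with htl was higher in nuclei with muscle and mesoderm genes. In nuclei that held UMIs of at least 2 genes of a list at 250 UMIs, between 6 and 14 hours, htl was detected in 3.82% of 15853 nuclei for somatic muscle (95% interval 3.53 to 4.13%, exact binomial), 3.38% of 2191 for visceral mesoderm (2.66 to 4.22%), and 3.05% of 1508 for the cardiac list (2.24 to 4.05%). In nuclei with UMIs of at least 2 fat body genes, taken as the background for free RNA, it was detected in 0.666% of 6156 (0.478 to 0.902%), and in all nuclei in 1.64%. Fat body genes were themselves lower with htl, so a low share in these nuclei follows from that comparison. The median depth before thinning was 98.3% of that of all nuclei for the somatic muscle nuclei and 105.6% for the fat body nuclei. Over the 3 experiments the share in somatic muscle was 3.18 ± 1.05% (SD) and that in fat body 0.573 ± 0.133%, and the lowest of the former, 2.54%, was above the highest of the latter, 0.726%. Between 2 and 8 hours the early mesoderm nuclei had 2.93% of 8747 (2.58 to 3.30%) and the fat body nuclei 0.952% of 1471 (0.521 to 1.59%). The intervals cover counting error only. Their median depths before thinning were 101.6% and 100.2% of that of all nuclei.

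By the same ranking rule, the 10 genes most enriched in nuclei with stumps were btl, lncRNA:CR45361, wgn, if, htl, knrl, Hs6st, CG32447, trh and org-1. The first is Breathless, the FGF receptor of the trachea, at 133.6 CPM in nuclei with stumps against 39.1 CPM, with a log2 fold change of 1.51 ± 0.13 (SE), higher in 26 of 32 pairs. Trh, the transcription factor that specifies the trachea, had 1.13 ± 0.10, and Hs6st, which encodes a heparan sulfate 6-O-sulfotransferase, had 1.199 ± 0.08 at 963 CPM against 397.7 CPM. All but CG32447, which lost the call without the pair block, passed under all 13 alternatives. Both FGF receptor genes of the fly, btl and htl, were thus among the 10.

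Markers of the trachea and of the mesoderm were higher in nuclei with stumps, where 15.1% of all genes rose and 5.7% fell. All 7 trachea genes tested rose, with a median log2 fold change of 0.75 beside 0.06 over all genes, and the cuticle gene Gasp at 1.09 ± 0.12 (SE) was the third after btl and trh. All 6 early mesoderm genes tested rose as well, with a median of 0.71, Mef2 at 1.01 ± 0.08 and twi, which specifies the mesoderm, at 0.71 ± 0.15, and so did 8 of 9 somatic muscle genes and 3 of 5 visceral mesoderm genes. Of the midline list 3 of 4 rose, with wrapper, a protein of midline glia, at 1.08 ± 0.15 and sim, the master factor of the midline, at 0.69 ± 0.13. Some other lists of the ectoderm held genes that rose and none that fell. They were early neurogenic ectoderm with 3 of 6 (median 0.30), glia with 2 of 5, and neural progenitor and epidermis with 2 of 7 each. The neuron list went the other way, with 2 of 6 genes lower and none higher (median -0.15). Of 6 amnioserosa genes 1 rose and 1 fell, and neither of the 2 salivary gland genes tested passed. None of the 6 cardiac genes tested passed. Fat body genes fell in 3 of 4 and hemocyte genes in 3 of 6, with apolpp at -1.36 ± 0.14 and the peroxidasin gene Pxn at -0.65 ± 0.13.

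By shares of nuclei, stumps was detected most often in nuclei with mesoderm genes in the early period and in those with trachea genes in the middle one, a change that was not tested. Fat body genes were themselves lower with stumps, so the shares in all nuclei are also given for these periods. Between 2 and 8 hours it was detected in 11.3% of the 8747 early mesoderm nuclei (95% interval 10.6 to 11.98%, exact binomial) and in 9.22% of 1063 trachea nuclei (7.55 to 11.1%), against 2.52% of 1471 fat body nuclei (1.78 to 3.45%) and 4.76% of all. Between 6 and 14 hours the trachea nuclei had the higher share, 12.03% of 8002 (11.3 to 12.8%), and the early mesoderm nuclei 8.06% of 11138 (7.56 to 8.58%), against 2.42% in fat body nuclei (2.05 to 2.84%) and 5.52% in all. Over the 3 experiments of this period the trachea share was 11.2 ± 3.10% (SD), from 7.64 to 13.2%, and the fat body share 2.63 ± 0.713%, from 2.10 to 3.44%, so they did not overlap, whereas the trachea and the early mesoderm shares, the latter from 7.11 to 8.51%, did. Between 12 and 20 hours the trachea share was 5.20% (4.94 to 5.47%). As btl is on the trachea list, these nuclei were in part chosen by this receptor.

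By the same ranking rule, the 10 genes most enriched in nuclei with pyr were ths, lncRNA:CR42651, wg, Trim9, Awh, CG33993, bbg, otp, inv and wb, and those with ths were pyr, lncRNA:CR42651, RhoGEF64C, hh, dar1, inv, FBti0060950, bbg, Trim9 and Antp. Segmental and regional genes of the ectoderm stood among them: wg and hh encode the Wingless and Hedgehog signals of the segment boundary, inv a homeobox protein of the posterior compartment, otp and Awh homeobox proteins, and Antp a Hox protein. In RefSeq lncRNA:CR42651 carries the synonym pri-mir-10, the primary transcript of the Hox cluster miRNA mir-10. It had a log2 fold change of 1.05 ± 0.11 (SE) with pyr and 1.36 ± 0.12 with ths, at 199.2 CPM in nuclei with ths against 74.02 CPM. In nuclei with pyr, wg had 0.93 ± 0.09 at 250.1 CPM against 142.7 CPM, and in nuclei with ths, hh had 0.96 ± 0.09 at 321.02 CPM against 162.7 CPM and Antp 0.84 ± 0.12 at 1533 CPM against 808 CPM. The lists shared ths or pyr, lncRNA:CR42651, inv, bbg and Trim9. Without the pair block 3 of the 10 genes lost the call for pyr (CG33993, bbg and otp) and 5 of the 10 for ths (RhoGEF64C, hh, dar1, inv and bbg).

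Epidermal markers were higher with both ligands. Of all genes tested, 16.9% were called higher with pyr and 19.7% with ths. Of the epidermis list 6 of 7 genes tested rose with pyr, with a median log2 fold change of 0.52 beside 0.01 over all genes, and 6 of 7 rose with ths, with a median of 0.49 beside 0.00. Examples with pyr are dpy, a giant protein of the cuticle (0.70 ± 0.06, SE), and grh, a transcription factor of the epidermis (0.58 ± 0.05). Of the early neurogenic ectoderm list 4 of 6 rose with pyr and 3 of 6 with ths, led by sog, the antagonist of Dpp signals, at 0.70 ± 0.07 and 0.56 ± 0.09. All 5 neuron genes tested rose with ths, with a median of 0.49, Syt1 (synaptotagmin) at 0.85 ± 0.11 and brp, of the active zone, at 0.64 ± 0.10, whereas 1 of 7 did with pyr. With pyr the endoderm factor GATAe rose by 0.80 ± 0.14 and dve by 0.58 ± 0.11, while hkb of the same list fell by 0.60 ± 0.22, a call lost under 7 of 13 alternatives. Genes of the cardiac list rose with ths too, 3 of 4 tested, with a median of 0.41, among them mid at 0.53 ± 0.11 and lbl at 0.59 ± 0.18. The other mesoderm lists were near the share of all genes. Of the visceral mesoderm list 1 of 4 rose, Fas3, at 0.58 ± 0.07, and of the early mesoderm list 1 of 5, with a median of 0.07 for each list. The calls of mid, lbl and Fas3 were lost without the pair block. With pyr 1 of 4 genes each of the cardiac and visceral mesoderm lists rose, beside 16.9% of all genes. The differences between the ligands were not tested.

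Hemocyte and fat body genes were lower with the ligands, where 7.71% of all genes fell with pyr and 8.68% with ths. Hemocyte genes fell in 5 of 6 with pyr and 6 of 6 with ths, with the collagen gene Col4a1 at -0.73 ± 0.12 (SE) and -0.76 ± 0.11. All 3 fat body genes tested fell with each ligand, with apolpp at -1.60 ± 0.14 with pyr and -1.61 ± 0.14 with ths. This gene, at 8341 and 7777 CPM in the nuclei without a UMI of pyr or ths, was lower with all 4 pathway genes, and its part in the other values was not tested. Of 9 somatic muscle genes 5 fell and 1 rose with pyr, with a median of -0.46, and 3 fell and 2 rose with ths, with a median of -0.01. The myosin light chain gene Mlc2 was among those that fell, at -0.58 ± 0.13 with pyr and -0.64 ± 0.11 with ths. Among those that rose was rols, which acts in myoblast fusion, at 0.60 ± 0.08 with pyr and 0.28 ± 0.08 with ths, where kirre also rose, by 0.27 ± 0.07.

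The number of list genes called depended on the setting, and is given here for somatic muscle with htl, trachea with stumps, and epidermis with pyr and with ths. Without the block none of 10 somatic muscle genes passed with htl, 3 of 7 trachea genes with stumps, and 1 of 7 epidermis genes with each ligand, while the medians were 0.78, 0.67, 0.55 and 0.50. Without experiment 1 the counts were 4 of 9, 5 of 7, 4 of 5 and 4 of 5, and with DESeq2 4 of 10, 4 of 7, 5 of 7 and 5 of 7. In these fits, without TMM factors and with TMM factors of each sum, each of the 4 medians was above 0.

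**Figure D4:**
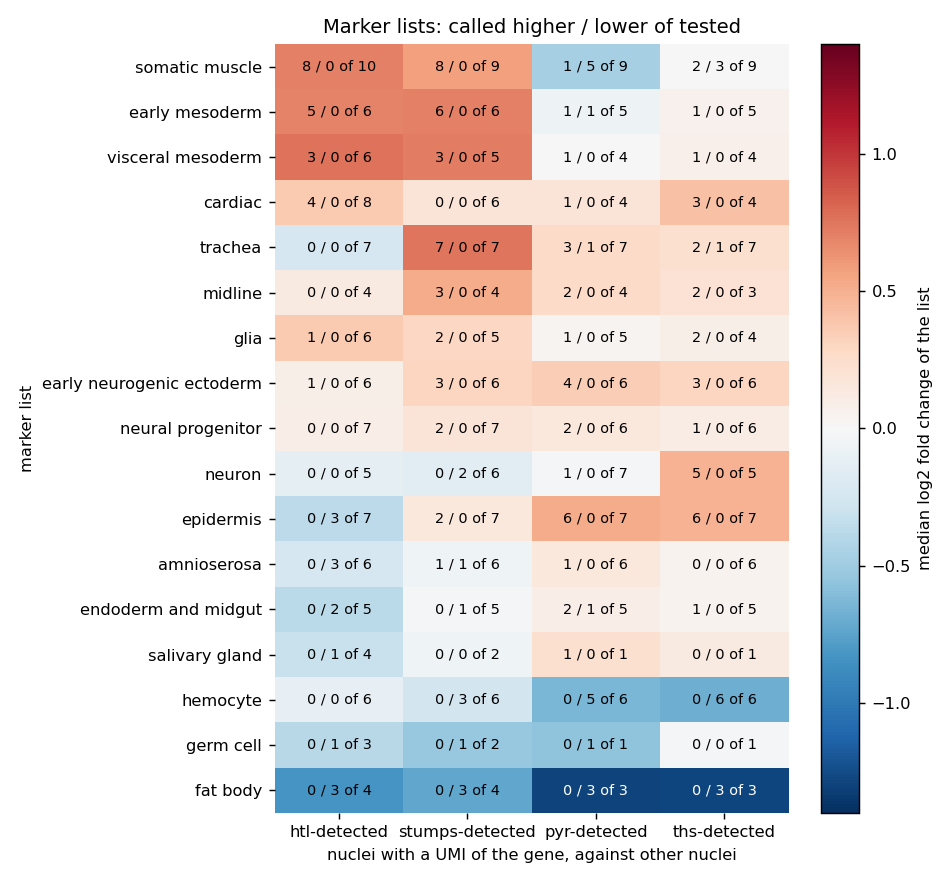
Median log2 fold change of each marker list (rows) between nuclei with and without a UMI of htl, stumps, pyr or ths (columns), in colour, with the number of its tested genes called higher and lower in each cell. Trachea genes stand out with stumps (7 of 7 higher, median 0.75), muscle genes with htl (8 of 10, median 0.70), epidermis genes with pyr and ths (6 of 7 each), and fat body genes are lower with all 4.

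Nuclei with ectoderm genes held the ligands more often than fat body nuclei in the early and the middle period. Fat body genes were themselves lower with both ligands, so the shares in all nuclei are also given for these periods. Between 2 and 8 hours ths was detected in 8.73% of 4731 early neurogenic ectoderm nuclei (95% interval 7.94 to 9.57%, exact binomial) and 5.67% of 9842 epidermis nuclei (5.22 to 6.14%), against 2.38% of 1471 fat body nuclei (1.66 to 3.29%), and pyr in 4.76% (4.17 to 5.40%), 4.79% (4.37 to 5.23%) and 1.02% (0.572 to 1.68%) of the same nuclei, in that order. In all nuclei at 250 UMIs, ths had mean shares over experiments of 6.07, 4.69 and 4.49% at 2 to 4, 3 to 7 and 4 to 8 hours. For pyr these means were 1.60, 2.73 and 3.35%. The epidermis share of ths lay within the range of these means. They weigh experiments alike, while the list shares pool all nuclei of the period, so this comparison is not like for like. Between 6 and 14 hours the epidermis nuclei had 4.71% for ths (4.44 to 4.99%) and 4.36% for pyr (4.09 to 4.63%), against 1.12% (0.873 to 1.42%) and 1.22% (0.959 to 1.52%) in fat body nuclei. In all nuclei the mean shares of ths at 6 to 10, 8 to 12 and 10 to 14 hours were 2.13, 3.37 and 3.77%. Those of pyr were 2.26, 3.23 and 3.33%. Over the 3 experiments of that period the epidermis share of pyr was 4.13 ± 0.435% (SD) and of ths 4.98 ± 1.195%, and each was above the fat body share in 3 of 3 experiments. Between 12 and 20 hours the endoderm and midgut nuclei had 5.89% of 1188 for pyr (4.62 to 7.39%) and 5.30% for ths (4.10 to 6.73%), whereas between 2 and 8 hours their share for pyr was 1.04% (0.418 to 2.12%), beside 1.02% in fat body nuclei. In the fat body nuclei of 12 to 20 hours pyr had 1.74% and ths 1.73%. The median depth of the epidermis nuclei before thinning was 89.6% of that of all nuclei between 2 and 8 hours and 98.04% between 6 and 14 hours.

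The rest of the pathway was followed through a list of 18 other FGF and receptor tyrosine kinase genes and a list of 12 heparan sulfate genes, whose products carry FGFs at the cell surface. Between 0 to 2 and 3 to 7 hours 8 of the 18 rose and 6 fell, beside 43.4% and 27% of all genes. Those that rose most were bnl, the FGF ligand of Breathless (6.61 ± 0.51, SE), edl, an Ets regulator (6.15 ± 0.42), and sty, the antagonist Sprouty (5.84 ± 0.55), of sizes like those of the 4 members. Other genes of the cascade were lower in the later window: csw, the phosphatase Corkscrew, fell by 2.55 ± 0.31 and Dsor1, the MAP kinase kinase, by 1.81 ± 0.28. Of the heparan sulfate genes 7 of 12 rose, with the glypican dally at 6.97 ± 0.62 and the perlecan gene trol at 4.26 ± 0.62, and sotv, a polymerase of the chain, fell by 1.54 ± 0.29. Between 8 to 12 and 16 to 20 hours 4 of the 18 fell, beside 6.78% of all genes, with btl at -2.15 ± 0.42, the Ets factor pnt at -1.98 ± 0.41, the repressor aop at -1.32 ± 0.38 and edl at -1.22 ± 0.39, while trol rose by 3.22 ± 0.69 and Sulf1, a sulfatase, fell by 1.38 ± 0.40. The calls of aop and Sulf1 were each lost under 5 of 13 alternatives, DESeq2 and leaving out experiment 1, 3 or 10 among them. With experiment as a block 26.1% of all genes were called lower.

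Within nuclei some genes of both lists rose with each of the 4 genes. With stumps 9 of the 18 receptor tyrosine kinase genes rose, beside 15.1% of all genes, led by btl, sty (0.86 ± 0.08, SE) and pnt (0.78 ± 0.06), and 7 of 11 heparan sulfate genes, led by Hs6st. With pyr 6 of 18 and 8 of 11 rose, beside 16.9% of all genes, and with ths 5 of 18 and 8 of 11, beside 19.7%. Dally was the highest heparan sulfate gene with both ligands, at 0.76 ± 0.06 with pyr and 0.76 ± 0.08 with ths, and rl, the MAP kinase, rose by 0.52 ± 0.07 and 0.53 ± 0.06. With htl, where 3.62% of all genes rose, 3 of 18 rose, bnl, edl and sty, by 0.41 ± 0.12 or less, each lost under 7 or more of 12 alternatives, and 3 of 12 heparan sulfate genes, with Hs6st at 0.55 ± 0.09, which was lost with all UMIs of each nucleus and without the pair block. None of either list fell in nuclei with any of the 4 genes.

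Genes with a course most like that of each member were ranked by Pearson's r of log2 CPM (prior count 1) over the 38 sums, which share experiments and the contrast between the first windows and the rest, so r is high for many genes. Stumps was the gene most like htl, with r = 0.989, followed by Ccdc85, Ten-a, nAChRbeta2 and mirr. For stumps the nearest were ckn (0.990), Antp, hth, wb and htl. For pyr they were mew (0.992), Ten-a, ckn, tna and Zasp52, and for ths sdt (0.987), CG30089, CG32982, Shrm and jbug. Over the 28 sums from 3 to 7 hours on, r of htl with stumps was 0.549 and that of pyr with ths 0.419. The sdt and CG30089 genes stayed among the 5 most like ths in these later sums, with r of 0.867 and 0.846, and mew and Ten-a among those most like pyr, with 0.841 and 0.864.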

How the data were processed

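The deposited matrix held counts of UMIs per gene and nucleus. The authors aligned reads (STAR 2.7.3a and the builds dm6 and BDGP6 are named in the submitters' processing notes), assigned nuclei to collection windows by their first barcode, and removed nuclei with few UMIs and inferred doublets. No further doublet caller was run. They also deposited an age score for each nucleus, inferred by a neural network from the same counts, which is used here in hours.

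Counts were summed over the nuclei of each experiment and window with at least 100 nuclei (38 sums). Windows were compared with edgeR 4.0.16 (R 4.3.3) quasi-likelihood tests with filterByExpr, TMM factors and Benjamini-Hochberg adjustment over all genes tested. For each pathway gene, nuclei with and without its UMIs, thinned to 250 UMIs with a fixed seed, were summed and compared with each pair of sums as a block and TMM factors from the pooled sums, a scaling chosen after tests on simulated data showed that factors of each sum were biased. Co-detection was measured by Mantel-Haenszel odds ratios in each experiment and tested by exact sign-flip permutation. DESeq2 1.42.0 (alternative), Python 3.11.15 and SciPy 1.17.1 were also used. The genes named are the pathway genes, the 10 genes with the largest log2 fold change among those called in each comparison of nuclei, higher in at least 80% of pairs and with at least 50 UMIs in nuclei with the gene, list genes called with the largest changes, and the 5 genes most alike. The pathway genes and the lists were chosen with earlier results of these data known.

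Depth was a median of 399 UMIs in 547805 nuclei, with 462334 to 36032867 UMIs in a sum, and intervals cover counting error only. Of the 1908 samples, each a well, 433 held no nucleus in the matrix. Experiment numbers mark shared batches: the median r between deviations of sums from their window's mean was 0.365 for sums of 1 experiment (107 pairs) and -0.076 for sums of different experiments (544 pairs). Alternatives were other scalings, no filter, DESeq2, experiment as a block, no pair block, all UMIs, nuclei with at least 400 UMIs, nuclei with an inferred age within their window, age strata, and leaving out each experiment. Some of these were chosen after seeing the data: TMM factors of each sum was one. Gene names were taken from the matrix, Ensembl BDGP6.54 and RefSeq (Release 6 plus ISO1 MT, names only), and no sequence was used here.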

Additional observations from a re-analysis of the deposited data

Results flagged for a closer look

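Single experiments stood apart from the others in 4 of the 22 groups of 4 to 10 values that were examined with Dixon's criterion, which chance meets in about 1 group in 20. The htl level at 1 to 3 hours was 19.5 CPM in experiment 2, and the nearest of the other 3 values was 4.97 CPM. The stumps level at 3 to 7 hours was 330.9 CPM in experiment 1, with the nearest of the other 5 values at 224.3 CPM. The pyr level in the same window and experiment was 194.8 CPM, with the nearest at 103.6 CPM. The log2 odds ratio of stumps with ths was 0.33 in experiment 4, above the nearest of the other 6 values at 0.01.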

How the results depend on the processing

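The rise of all 4 genes between 0 to 2 and 3 to 7 hours kept its direction and call under every alternative run. Other shares of genes called moved. Between 3 to 7 and 8 to 12 hours it was 17.6%, 28.4% with experiment as a replicate block, and 10.9 to 16.6% when each experiment was left out in turn. Between 8 to 12 and 16 to 20 hours it was 22.4%, 49.1% with the block, and 10.8 to 22.8%. Of the genes called between 0 to 2 and 3 to 7 hours 61.6% were higher, and 77.7% with DESeq2; in the other comparisons of windows these shares were 63.1% and 69.8%, 69.97% and 80.4% with DESeq2, 53.2% and 64.1% without TMM factors, and 53.8% and 46.8% with the replicate block.

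In the comparisons of nuclei, the share called without the block of pairs (no replicate block) was 0.118% in place of 7.13% for htl, 1.02% in place of 20.8% for stumps, 1.56% in place of 24.6% for pyr and 1.29% in place of 28.4% for ths. With all UMIs of each nucleus it was 14.7% for htl, 26.5% for stumps and 30.99% for ths, but 19.6% for pyr, below its main share. For htl it was 3.26% with DESeq2 and 16.97% with TMM factors of each sum, an alternative chosen after seeing the data. With these factors 9.93% of the calls were higher for htl, 22.1% for stumps, 16.95% for pyr and 30.3% for ths. Leaving out each experiment gave 1.57 to 7.24% for htl, 11.5 to 20.8% for stumps, 16.6 to 24.4% for pyr and 18.3 to 30.98% for ths.

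The mean log2 odds ratio of htl with stumps was 1.01 to 1.1999, and that of pyr with ths 1.402 to 1.58, when each experiment was left out. With 6 experiments the smallest possible exact permutation p is 0.0312, so neither could pass the adjusted threshold. The difference of the receptor-side pair from the ligand-receptor pairs was 1.22 to 1.63 without each experiment. It stayed positive in all experiments left, and wherever 5 were left the exact permutation p was 0.0625, the smallest that 5 allow. With strata of inferred age it was 1.35, positive in 5 of 6 experiments with a lowest value of -0.11, and the call was lost with an exact permutation p of 0.0625, above the smallest possible 0.0312.

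Signs changed mostly in values that were not called. Between 8 to 12 and 16 to 20 hours pyr was 0.31 with DESeq2, 0.026 with nuclei of an inferred age within their window and -0.062 to 0.14 without each experiment. In that comparison ths was 0.030 without TMM factors, 0.36 with DESeq2, 0.024 with the replicate block, 0.093 with nuclei of an inferred age within their window and -0.0066 to 0.14 without each experiment. Between 3 to 7 and 8 to 12 hours pyr was -0.094 with the replicate block and ths 0.0061 with DESeq2. In nuclei with ths, stumps was 0.032 with all UMIs. With all UMIs the log2 odds ratios were 0.67 for htl and pyr, 0.78 for htl and ths, 0.86 for stumps and pyr and 0.85 for stumps and ths, and without each experiment that of htl and ths was -0.16 to 0.030. Of the called values in nuclei with htl, Sdc was -0.068 and sty -0.025 with TMM factors of each sum, and trol -0.087 with all UMIs. The cause of these changes was not tested.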
